A study of Mus musculus with 24 samples.

Results

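The Toll-like receptors and their co-receptors are a family of 10 genes here, namely Tlr1, Tlr2, Tlr3, Tlr4, Tlr6, Tlr7, Tlr9, Tlr13, Cd14 and Ly96, taken by symbol from the 54658 gene symbols of the count tables. All 10 passed the low-count filter in each tissue. RNA was sequenced from 24 samples of male C57BL/6 mice aged 7 to 12 weeks that had received β-NMN (nicotinamide mononucleotide, a precursor of NAD+, at 185 mg/kg) or saline as vehicle. In 12 mice, sterile peritonitis was elicited with 1 mL of thioglycollate medium (TGC), treatment was injected daily beginning together with the TGC, and the lavaged peritoneal cells of 6 vehicle and 6 β-NMN mice were cultured for 6 h with *E. coli*. All of these samples had met bacteria, and no unstimulated cells were analysed here. In 6 other mice, sepsis was induced by cecal ligation and puncture (CLP), which leaks gut bacteria into the abdomen, treatment was given after surgery, and the heart and the lung of the same 3 vehicle and 3 β-NMN mice were sampled on the next day. No heart or lung of a sham-operated mouse was analysed here.

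Toll-like receptors sense microbial molecules and are a main means by which macrophages recognize bacteria. At the cell surface, TLR2 pairs with TLR1 or TLR6 to bind lipoproteins, while TLR4 binds lipopolysaccharide (LPS) of Gram-negative bacteria together with MD-2, the product of Ly96, after CD14 has handed LPS over. TLR3, TLR7, TLR9 and TLR13 sit in endosomes and recognize nucleic acids. Bound receptors signal through the adaptors MyD88 and TRIF to NF-κB, AP-1 and interferon regulatory factors.

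Total counts ranged from 31.1 to 112.5 M per library in peritoneal cells, from 27.3 to 68.5 M in hearts and from 8.9 to 28.4 M in lungs. The lowest total was that of the lung of vehicle replicate 2. Both libraries of this mouse stood apart from the others: its log2 differences from the mean of the other lungs had an SD of 1.57, against 0.45 to 0.6 for the other lungs, and in hearts the SD was 0.99, against 0.39 to 0.58. Fold changes of single receptors that rest on this mouse, and the counts of genes whose groups lay apart, are also given without it, while marker sums and ratios are given with it. The summed level of 7 macrophage markers was 5620 to 8550 CPM (read counts of a gene in each 1 M of the library, scaled with TMM) in the peritoneal cells of vehicle mice and 10600 to 12100 CPM in those of β-NMN mice, while cardiomyocyte markers reached at least 31800 CPM in every heart and alveolar and airway epithelial markers at least 54800 CPM in every lung, so the labelled tissues carried their defining markers.

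In peritoneal cells, 6 of the 10 genes were lower with β-NMN and 0 were higher at an adjusted p below 0.05 (edgeR's quasi-likelihood test with Benjamini-Hochberg adjustment over 14985 genes). Among all genes tested, 27.9% were called lower and 23.7% higher. Cd14 fell most, by 2.92 on the log2 scale, followed by Tlr13 with a fall by 2.33 and Tlr6 with a fall by 1.78, and Tlr9, Tlr2 and Tlr1 fell by 1.06, 0.81 and 0.73. Tlr4, Ly96, Tlr3 and Tlr7 did not pass the test. The median change of the 10 genes was −0.77, against −0.022 over all genes tested. The groups did not overlap for 4 genes, Cd14, Tlr13, Tlr6 and Tlr1, all lower with β-NMN, where 14% of all genes were lower and 12.6% higher with no overlap.

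**Figure D1:**
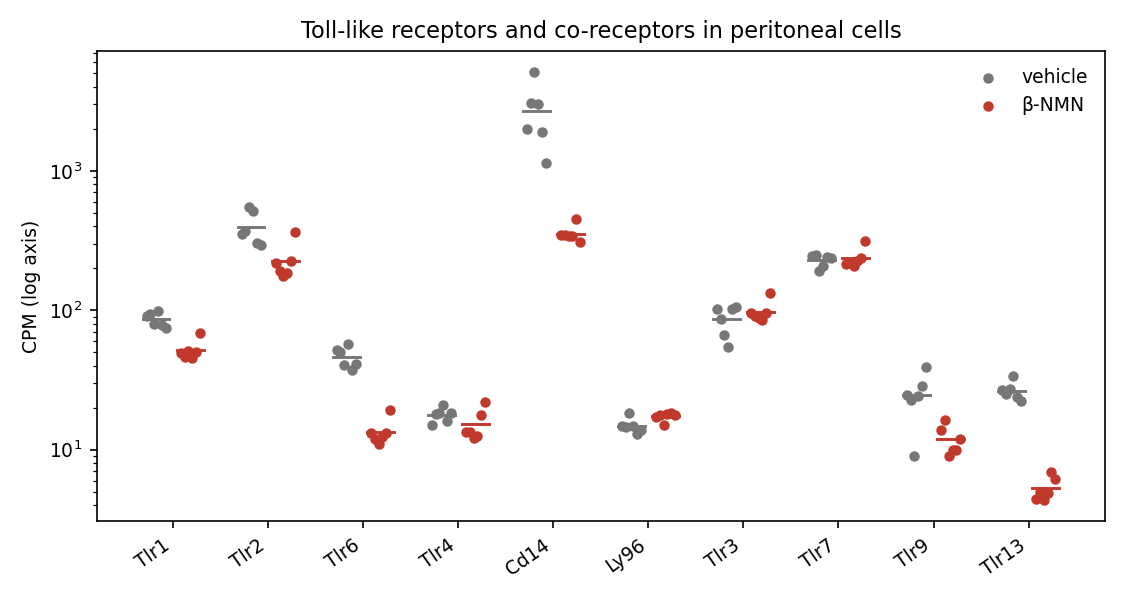
CPM on a log axis of the 10 genes in peritoneal cells stimulated with *E. coli*. Each point is 1 mouse (6 vehicle in grey, 6 β-NMN in red), and lines are arithmetic means. The groups lie apart for Tlr1, Tlr6, Cd14 and Tlr13 and overlap for the others.

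The stretches before the RefSeq starts (GRCm38.p6) of Tlr1, Tlr6 and Tlr9, which are among the 6 genes called lower in peritoneal cells (below), were chosen because each holds a match to one of 5 short motifs searched on both strands. Of the 10 genes, 6 had at least one start in the promoter table, which were Tlr1, Tlr2, Tlr3, Tlr6, Tlr9 and Tlr13. Tlr1 at chr5:64933559-64933808 (minus strand) carries the core GAGGAAGT of the myeloid factor PU.1, which 3.2% of all promoters of the table hold. Tlr6 at chr5:64959167-64959416 (minus strand) carries a pair of overlapping reverse-strand matches to GAAANNGAA, a pattern like the interferon-stimulated response element, which 8.56% hold. Tlr9 at chr9:106222348-106222597 (plus strand) carries TGANTCA, the AP-1 pattern, which 7.81% hold and which reads as a match on both strands here. The shares are of promoters of 300 bases, which run 50 bases past the start, and in those last bases Tlr9 also holds a reverse-strand match to GAGGAAGT. In GENCODE M21, the Tlr6 stretch is intronic, the Tlr9 stretch lies outside the gene, and the Tlr1 stretch shares 5 bases with an exon. Capitals mark the matched bases in the 250 bases before each start.
Tlr1: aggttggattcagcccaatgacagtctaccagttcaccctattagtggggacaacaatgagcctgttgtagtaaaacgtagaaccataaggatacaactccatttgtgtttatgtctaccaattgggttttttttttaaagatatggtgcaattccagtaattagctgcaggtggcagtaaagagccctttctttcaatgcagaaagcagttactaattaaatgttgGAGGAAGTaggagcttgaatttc
Tlr6: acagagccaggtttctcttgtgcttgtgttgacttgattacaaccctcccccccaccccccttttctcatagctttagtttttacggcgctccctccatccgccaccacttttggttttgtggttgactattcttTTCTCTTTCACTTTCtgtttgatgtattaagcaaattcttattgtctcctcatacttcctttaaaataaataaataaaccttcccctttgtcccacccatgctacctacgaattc
Tlr9: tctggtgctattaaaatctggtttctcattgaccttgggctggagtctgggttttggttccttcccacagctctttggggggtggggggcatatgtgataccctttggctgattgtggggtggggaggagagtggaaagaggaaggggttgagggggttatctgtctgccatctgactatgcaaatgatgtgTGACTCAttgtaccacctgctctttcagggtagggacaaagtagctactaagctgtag
A match describes these letters only. In the same windows of the other genes, a match to GGGNNTTTC, a κB-like pattern held by 4.36% of promoters, occurred before Tlr3, and matches to TATAAA, held by 13.62%, occurred before the other listed start of Tlr6. Neither Tlr2 nor Tlr13, both of which fell, had a match to any of the 5 motifs.

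Among the surface receptors, Tlr2, the shared partner for lipoproteins, had 352, 372, 547, 518, 304 and 292 CPM in vehicle replicates 1 to 6 and 218, 192, 176, 185, 227 and 363 CPM in β-NMN replicates 1 to 6. A single β-NMN library, replicate 6, reached into the vehicle range, and the mean fell from 398 ± 109 to 227 ± 69.4 CPM (SD, n = 6 each), a log2 fold change of −0.81 (SE 0.2, adjusted p = 0.00317 by edgeR). Tlr1, its partner for triacylated lipoproteins, had 91.2, 94.1, 79.2, 98.7, 78 and 74.6 CPM with vehicle and 49.2, 46, 50.8, 45.5, 50.4 and 68.5 CPM with β-NMN. Every β-NMN library was below every vehicle library, and the log2 fold change was −0.73 (SE 0.11, adjusted p = 7.21e-05 by edgeR).

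Tlr6, the partner for diacylated lipoproteins, lies beside Tlr1 on the minus strand of chromosome 5 (chr5:64952031-64960097 and chr5:64924679-64933563, GRCm38, GENCODE M21). It had 51.9, 50, 40.7, 57.7, 37.1 and 41 CPM with vehicle and 13.1, 12, 10.9, 12.3, 13.1 and 19.4 CPM with β-NMN. The level with β-NMN was 29% of that with vehicle, with no overlap (log2 fold change −1.78, SE 0.15, adjusted p = 2.94e-07 by edgeR). Of the 100-base windows of the transcripts, 259 are shared by both genes, which is 7.89% of the windows of Tlr1 and 7.09% of those of Tlr6, and the longest identical stretch is 229 bases. The sources used here do not say how reads from these bases were assigned, so small differences between Tlr1 and Tlr6 are uncertain.

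The LPS receptor complex did not move as one. Cd14, which delivers LPS to TLR4, had 1980, 3040, 5100, 3030, 1890 and 1130 CPM with vehicle and 345, 348, 338, 339, 450 and 309 CPM with β-NMN. The lowest vehicle library was above the highest β-NMN library, and the spread between libraries was 1390 CPM (SD) in vehicle and 48.8 CPM in β-NMN mice. The mean fell from 2690 to 355 CPM, a log2 fold change of −2.92 (SE 0.28, adjusted p = 1.28e-06 by edgeR).

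Tlr4, the LPS receptor itself, had 15.1, 17.9, 18.3, 20.8, 16.1 and 18.4 CPM with vehicle and 13.4, 13.4, 12.2, 12.5, 17.8 and 22 CPM with β-NMN. The highest and the 4 lowest of these 12 libraries were from β-NMN mice, and the log2 fold change of −0.23 (SE 0.14) did not pass (adjusted p = 0.205 by edgeR). Without β-NMN replicate 6, it was −0.33 and passed (adjusted p = 0.0263). Ly96, which encodes MD-2, had 14.9, 14.6, 18.2, 14.8, 12.9 and 13.9 CPM with vehicle and 17.2, 17.6, 15, 18, 18.3 and 17.7 CPM with β-NMN. The groups overlapped through vehicle replicate 3, the second highest of the 12 libraries, and the log2 fold change of 0.22 (SE 0.09) had an adjusted p of 0.0619 by edgeR. It passed as higher without vehicle replicate 3 (adjusted p = 0.0041), without β-NMN replicate 3 (0.0218) and with DESeq2 (0.0193).

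Among the endosomal receptors, Tlr13, which recognizes bacterial ribosomal RNA, had 26.6, 25.2, 27.3, 33.5, 23.8 and 22.4 CPM with vehicle and 4.46, 4.94, 4.38, 4.85, 6.86 and 6.17 CPM with β-NMN. The groups lay far apart, and the β-NMN level was 19.9% of that of vehicle (log2 fold change −2.33, SE 0.14, adjusted p = 1.8e-08 by edgeR). Tlr9, the receptor for unmethylated CpG DNA, had 24.5, 22.8, 8.96, 24.1, 28.6 and 39.1 CPM with vehicle and 13.8, 16.4, 9.06, 10, 9.94 and 12 CPM with β-NMN. Except for vehicle replicate 3, the lowest of all 12 libraries, every vehicle library was above every β-NMN library, and the log2 fold change was −1.06 (SE 0.26, adjusted p = 0.00306 by edgeR).

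Tlr7, the receptor for single-stranded RNA, ranged from 191 to 247 CPM with vehicle and from 207 to 315 CPM with β-NMN, with a log2 fold change of 0.05 (SE 0.11, adjusted p = 0.721 by edgeR). Tlr3, the receptor for double-stranded RNA, ranged from 54.3 to 105 CPM and from 85.7 to 132 CPM, with a log2 fold change of 0.18 (SE 0.16, adjusted p = 0.362 by edgeR). For both genes the groups overlapped and the highest library was β-NMN replicate 6. Tlr3 shares exon bases with an antisense gene, Gm45542, and the sources used here do not state whether counting used strand, so reads of the pair could not be told apart.

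For single values, mean log2 CPM were set against every regrouping of the mice in an exact permutation test (two-sided), with p unadjusted unless stated. Tlr1, Tlr6, Cd14 and Tlr13 each reached 0.00216, the smallest exact p that 6 against 6 mice allow. Tlr2 had an exact p of 0.00866, Tlr9 of 0.0216 and Ly96, which lay higher with β-NMN, of 0.0325, and those of Tlr4, Tlr3 and Tlr7 were 0.126, 0.301 and 0.755. Adjusted over the 30 exact tests of the 10 genes in 3 tissues, Tlr1, Tlr6, Cd14 and Tlr13 had a p of 0.0162. Those of Tlr2 (0.052), Tlr9 (0.108) and Ly96 (0.139) did not pass.

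The peritoneal libraries fall into a deep class of 5 (3 vehicle and 2 β-NMN, 90.6 to 112.5 M counts) and a shallow class of 7 (3 vehicle and 4 β-NMN, 31.1 to 53.3 M). Within the deep class (16.6% of all genes lower), Cd14, Tlr13, Tlr6, Tlr1 and Tlr9 had log2 fold changes of −2.47, −2.43, −1.78, −0.75 and −0.96 and passed, while Tlr2 was at −0.79 with an adjusted p of 0.0505 by edgeR. Within the shallow class (14.7% of all genes lower), Cd14, Tlr13, Tlr6, Tlr1 and Tlr2 were at −3.2, −2.22, −1.74, −0.68 and −0.81 and passed, while Tlr9 was at −0.84 with an adjusted p of 0.0527 by edgeR. With the depth class as a term, 6 of the 10 genes were lower, beside 27.3% of all genes.

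Markers of other cell types moved as well, and the counts below stand beside 27.9% of all genes lower and 23.7% higher, which small lists can come near. The summed macrophage markers were higher with β-NMN (above), with 3 of 7 called higher and 0 lower. Most of this sum was Lyz2, which rose from 4340 ± 810 to 7750 ± 425 CPM (SD, n = 6 each). Cd68 and Mertk rose too (log2 fold change 0.84 and 1.48), while Adgre1 (0.2), Csf1r (0.24), Fcgr1 (−0.08) and Itgam (−0.2) were not called. Of 5 markers of resident peritoneal macrophages, 2 were higher (Timd4, 1.73, and Prg4, 1.5) and 2 lower (Gata6, −1.43, and Icam2, −0.58). Neutrophil markers summed to 495 to 1010 CPM with vehicle and 335 to 468 CPM with β-NMN, with 6 of 8 tested markers lower and 1 higher. Most of this sum was Csf3r, which fell from 554 ± 116 to 370 ± 52.6 CPM, and the granule genes S100a8 and S100a9 fell from 87.4 ± 35.4 to 2.78 ± 1.46 CPM (log2 fold change −5) and from 76.8 ± 37.4 to 2.02 ± 2.41 CPM (−5.31; SD, n = 6 each). Ly6g, Cxcr2 and Ltf fell by 4.77, 4.1 and 3.49 on the log2 scale, while Retnlg rose (1.38). Monocyte markers summed to 116 to 239 and 90.7 to 168 CPM, with 2 of 4 lower. Dendritic cell markers summed to 31.7 to 52.2 and 11.9 to 17.3 CPM, with 3 of 5 lower, and B cell markers to 30.6 to 149 and 20.6 to 81.6 CPM, with 2 of 4 lower. Markers of T and NK cells (12 to 62.9 and 7.22 to 10.4 CPM, 5 of 5 lower) and of fibroblasts (52.6 to 595 and 14 to 50.5 CPM, 3 of 3 tested lower) were lower with β-NMN, and erythroid markers (2.77 to 35.8 and 47.6 to 122 CPM, 4 of 4 higher) were higher. No marker of these lists was at 0 in all libraries of a group. In bulk samples, fewer cells of a type and less RNA per cell cannot be told apart, and the part of these marker levels in the changes of the receptors was not tested.

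Levels between genes were compared as CPM per kilobase of exon. In vehicle peritoneal cells, Cd14 had the highest level at 1550 ± 800 CPM per kilobase (SD, n = 6), followed by Tlr2 at 132 ± 36.3, Tlr7 at 55.7 ± 5.64 and Tlr1 at 25.7 ± 2.97, and the ranges of these 4 neighbours did not overlap. Tlr3, Ly96, Tlr6, Tlr9 and Tlr13 followed between 16.5 and 6.15 CPM per kilobase, and neighbours among these 5 overlapped. Tlr4 was lowest at 3.2 ± 0.356 CPM per kilobase, below Tlr13 in 6 of 6 libraries. With β-NMN, Cd14 and Tlr2 were again first and second, at 205 ± 28.2 and 75.2 ± 22.9 CPM per kilobase, the range of Tlr2 now overlapped with that of Tlr7, and Tlr13 took the last place at 1.23 ± 0.231 CPM per kilobase. Cd14 alone took 57.2% to 83.6% of the reads of the 10 genes in vehicle libraries (median 71.9%) and 24.4% to 40.1% in β-NMN libraries (median 36.2%).

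Ratios of partners within a library do not depend on how libraries are scaled, and were compared with exact two-sided permutation tests, with p adjusted over 18 tests of 6 ratios in 3 tissues. In peritoneal cells, Tlr1 stood at 1.9 to 2.34 times Tlr6 per kilobase with vehicle and at 3.94 to 5.17 times with β-NMN (exact p = 0.00216, adjusted p = 0.00974). The ratio of Tlr6 to Tlr2 was 0.0602 to 0.12 with vehicle and 0.0433 to 0.0538 with β-NMN (exact p = 0.00216, adjusted p = 0.00974). The ratio of Tlr1 to Tlr2 overlapped, with 0.13 to 0.234 and 0.17 to 0.26 (exact p = 0.693, adjusted p = 0.779). Relative to Tlr2, Tlr6 was thus lower with β-NMN, while no difference of Tlr1 passed the test.

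The ratio of Cd14 to Tlr4 fell from a median of 441 (197 to 891) to 82.9 (44.9 to 88.7), without overlap (exact p = 0.00216, adjusted p = 0.00974). The ratio of Ly96 to Tlr4 moved the other way, from a median of 4.39 to 6.84 (exact p = 0.0108, adjusted p = 0.039), but the groups overlapped and the adjusted exact p was below 0.05 in 3 of the 12 settings that left out 1 library. The sum of the endosomal receptors was 0.312 to 0.707 times the sum of Tlr1, Tlr2, Tlr4 and Tlr6 with vehicle and 0.716 to 0.939 times with β-NMN (exact p = 0.00216, adjusted p = 0.00974). Of the endosomal genes, Tlr7 and Tlr3, which did not pass the test, had higher levels per kilobase than Tlr9 and Tlr13, which fell. Tlr2 was highest among the surface genes (132 ± 36.3 CPM per kilobase with vehicle) and Tlr7 among the endosomal genes (55.7 ± 5.64). The ratio of the sums thus rests mostly on Tlr7 and Tlr2.

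**Figure D2:**
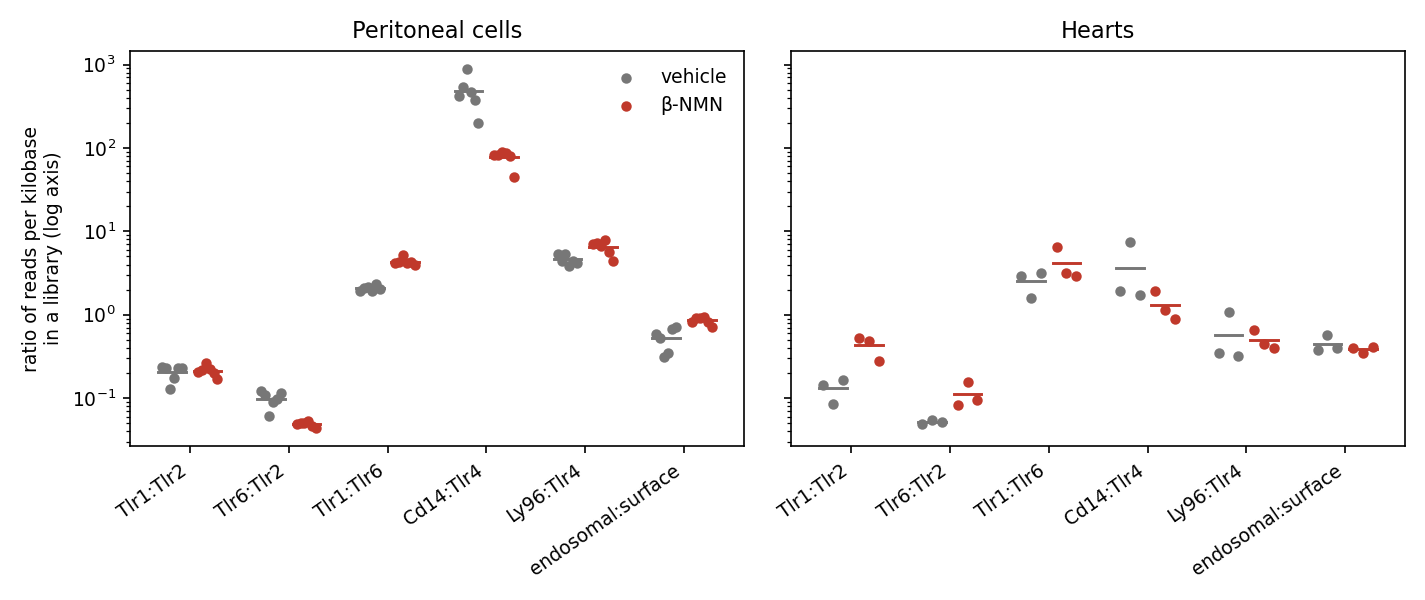
Ratios of reads per kilobase of 2 genes, or of the sums of the endosomal and the surface receptors, within each library, on a log axis. Points are libraries (6 against 6 peritoneal samples, 3 against 3 hearts; vehicle grey, β-NMN red), and lines are arithmetic means. In peritoneal cells, the groups lie apart for Tlr6:Tlr2, Tlr1:Tlr6, Cd14:Tlr4 and endosomal:surface.

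In hearts and lungs, 3 mice against 3 cannot give an exact p below 0.1. In hearts, the ratios of Tlr1 to Tlr2 (0.086 to 0.165 with vehicle, 0.281 to 0.532 with β-NMN) and of Tlr6 to Tlr2 (0.049 to 0.0544 and 0.0828 to 0.155) did not overlap, each with the smallest exact p of 0.1 (adjusted p = 0.257). The Tlr6 to Tlr2 ratio was thus lower with β-NMN in peritoneal cells and lay higher in hearts, and the difference between these 2 experiments was not tested. In lungs, all 6 ratios overlapped.

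The genes whose deviations from the group means followed those of each receptor most closely were listed over the 12 peritoneal libraries. This is a description only, of libraries that differ in depth. For Tlr3, the genes were Ifit2, Lhx2 and Setdb2 (r = 0.99 each), the first an interferon-induced gene. For Tlr9, they were Bcl2l1 (r = 0.98), Bach2 (0.97) and Nfatc1 (0.96), and for Tlr2, Rgmb (0.98), Ier2 (0.97) and Slc3a2 (0.97). For Cd14, they were Mcoln2 (0.96), Med24 and Ptgir (0.95 each), for Tlr7, Dtx3l, Nr3c1 (0.97 each) and Tle4 (0.96), and for Tlr1, Wsb1, Sde2 and Klhl24 (0.96 each). For Tlr6, Gtpbp10, Gm34643 and Ets2 reached r of 0.96, 0.95 and 0.94, for Tlr4, Spry2, Zfp110 and Ing5 reached 0.95, 0.94 and 0.94, for Ly96, Glipr1, Ufm1 and Eif2b1 reached 0.95, 0.94 and 0.89, and for Tlr13, Hexim1, Zfp410 and Dennd6a reached 0.94, 0.94 and 0.91. Between the receptors, r was 0.91 for Tlr1 with Tlr6, 0.78 for Tlr3 with Tlr7, 0.77 for Tlr2 with Tlr4 and −0.83 for Cd14 with Tlr9. Among vehicle libraries, replicate 3 had the highest Cd14 and the lowest Tlr9 (5100 and 8.96 CPM). Replicate 6 had the lowest Cd14 and the highest Tlr9 (1130 and 39.1 CPM). The part of these libraries in the r of Cd14 with Tlr9 was not tested.

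Other genes of the pathway were taken from a list of 78, of which 74 were tested in peritoneal cells, and 32 were lower (43.2%) and 16 higher (21.6%), beside the 27.9% and 23.7% of all genes. Of 5 tested adaptors, 2 fell (40%) and 0 rose, which were Ticam2, the bridge between TLR4 and TRIF (17.8 ± 3.62 to 7.65 ± 0.756 CPM, log2 fold change −1.22), and Pik3ap1, an adaptor of phosphoinositide 3-kinase (−0.96). Of 19 kinases and ubiquitin ligases, 11 fell (57.9%) and 2 rose (10.5%). Irak3, a kinase-like inhibitor of the pathway, fell from 152 ± 33.3 to 27 ± 4.11 CPM (log2 fold change −2.49, SE 0.15, adjusted p = 1.86e-08 by edgeR), and Traf3 and Irak2, which carry the signal downstream of the adaptors, fell by 1.37 and 0.8 on the log2 scale.

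Of 11 transcription factors, 6 fell (54.5%, beside 27.9% of all genes) and 2 rose (18.2%, beside 23.7%). Fos, an AP-1 subunit, fell by 1.59, Cebpb, a factor of inflammatory genes, by 1.4 and Nfkb1, an NF-κB subunit, by 0.78 on the log2 scale. In a group of 12 inhibitors, which does not hold Irak3 or Cd180, 4 fell (33.3%) and 2 rose (16.7%), shares near those of all genes. Tnip1 and the NF-κB inhibitor Nfkbia fell by 0.82 and 0.79 on the log2 scale, and the inhibitory receptor Cd300a rose (log2 fold change 0.9). Of 12 cytokine and interferon targets, 7 fell (58.3%) and 2 rose (16.7%). Il1b (2480 ± 920 to 275 ± 64.3 CPM, log2 fold change −3.17), Ptgs2 (−1.92) and Il6 (−1.57) were among those that fell. Ifnb1 (6.79 ± 2.3 to 18 ± 4.01 CPM, log2 fold change 1.41) and Ifit1 (0.53) rose, while Cxcl10 (0.07), Ccl5 (−0.01) and Isg15 (−0.06) were not called.

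Of 13 tested accessory and trafficking genes, 6 were higher (46.2%, beside 23.7% of all genes), 2 were lower and 5 were not called. Cd36, a scavenger receptor that also assists TLR2, rose from 566 ± 90.1 to 1230 ± 93.6 CPM (log2 fold change 1.12), Cd180, a receptor homologue that restrains TLR4, rose from 140 ± 39.4 to 283 ± 58.7 CPM (1.02), and Cd300lb rose from 5.32 ± 1.18 to 10.6 ± 3.36 CPM (0.99). Of the other Toll-like receptors, both that were tested rose, Tlr8 from 14 ± 2.18 to 29.6 ± 5.75 CPM (log2 fold change 1.07, SE 0.14, adjusted p = 1.5e-05 by edgeR) and Tlr11 from 0.705 ± 0.387 to 3.45 ± 0.666 CPM (2.33, SE 0.34, adjusted p = 5.57e-05 by edgeR), while Tlr5 and Tlr12 did not pass the low-count filter. Of the 78 listed genes, tested or not, 20 were lower within the shallow libraries, beside 14.7% of all genes tested there. Within the deep libraries, 25 of the 78 were lower, beside 16.6% of all genes tested there.

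**Figure D3:**
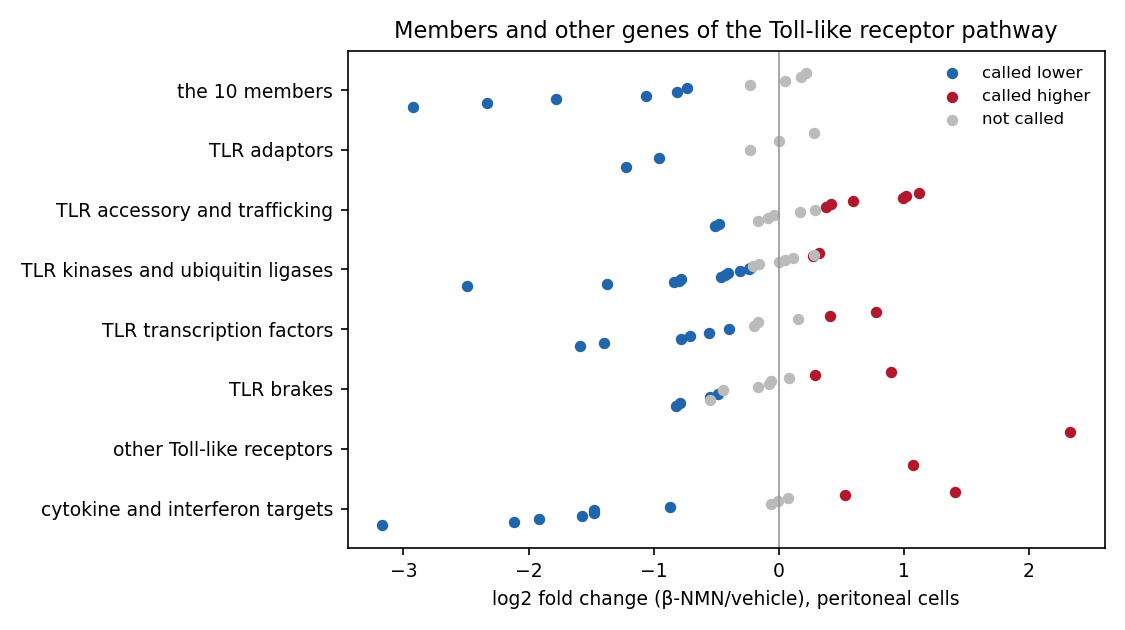
Log2 fold changes (β-NMN over vehicle) in peritoneal cells of the 10 genes (top row) and of the 74 tested pathway genes by group. Each point is a gene, blue where called lower, red where called higher and grey where not called at an adjusted p below 0.05. The kinases, transcription factors and cytokine targets hold more blue than red points, and the accessory genes 6 red and 2 blue points.

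In hearts of mice with CLP, 0 of the 10 genes passed at an adjusted p below 0.05, as did 0% of the 16245 genes tested, and 1837 genes (11.3%) had an unadjusted p below 0.05. Of the 10 genes, 6 had an unadjusted p below 0.05, 4 of them lower with β-NMN (Tlr2, Cd14, Tlr3 and Tlr7) and 2 higher (Tlr1 and Tlr9), and the groups of the same 6 genes did not overlap. Among all genes, 11.5% were lower and 11.6% higher without overlap. Without vehicle replicate 2, 3 genes had an unadjusted p below 0.05 (Tlr2, Cd14 and Tlr3, all lower), beside 10.3% of all genes, and the groups were apart for 4 lower and 3 higher genes, beside 14.3% and 14.7% of all genes. By DESeq2, 1 of the 10 genes was called, Tlr2, with 224 of all genes called lower and 38 higher.

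Tlr2 was at 13.9, 17.3 and 13.4 CPM in vehicle hearts and at 7.93, 6.04 and 8.22 CPM in β-NMN hearts. Every β-NMN heart was below every vehicle heart, and the log2 fold change was −1.01 (SE 0.18), with an adjusted p of 0.435 by edgeR and of 0.000701 by DESeq2. It was between −1.09 and −0.88 when each heart was left out in turn. Cd14 was at 12, 29.6 and 11.7 CPM and at 9.79, 8.44 and 5.61 CPM. The heart of vehicle replicate 2 held the highest value, and the log2 fold change of −1.17 (SE 0.41, adjusted p = 0.435 by edgeR) was −0.59 without it.

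Tlr7 was at 2.67, 6.38 and 2.44 CPM with vehicle and at 2.2, 1.57 and 1.97 CPM with β-NMN, and its log2 fold change of −1.01 (SE 0.41) was −0.44 without vehicle replicate 2. Tlr3 was at 9.31, 9.63 and 11.8 CPM and at 6.78, 5.77 and 8.87 CPM (log2 fold change −0.52, SE 0.2, and −0.56 without that heart). The opposite order was seen for Tlr1, with 2.17, 1.62 and 2.42 CPM against 4.65, 3.23 and 2.54 CPM (log2 fold change 0.75, SE 0.3), and for Tlr9, with 0.876, 0.922 and 1.16 CPM against 1.64, 1.85 and 1.33 CPM (0.71, SE 0.26). Without vehicle replicate 2 these 2 were at 0.58 and 0.66. Tlr13 (−0.73), Tlr4 (0.16), Ly96 (0.1) and Tlr6 (0.04) overlapped between the groups, and without vehicle replicate 2 they were at −0.3, −0.04, 0.52 and 0.21, with Ly96 then higher in every β-NMN heart.

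Neutrophil markers summed to 22.7 to 38.6 CPM in vehicle hearts and 14.7 to 17.2 CPM in β-NMN hearts, with 8 of 8 tested markers lower in fold change and 0 called. Cardiomyocyte markers summed to 31800 to 43900 and 45500 to 49300 CPM, and the sums of macrophage markers overlapped (211 to 379 and 266 to 468 CPM). Lyz2 was the largest part of the macrophage sum (149 ± 66.5 and 222 ± 85 CPM), and of the 7 markers 4 had negative and 3 positive fold changes, with 0 called. Cd68 (log2 fold change −0.53) and Itgam (−0.52) were lower in every β-NMN heart, while the groups overlapped for Adgre1 (0.69), Lyz2 (0.58), Mertk (0.12), Csf1r (−0.18) and Fcgr1 (−0.62). Without vehicle replicate 2, Cd68, Itgam and Fcgr1 were lower in every β-NMN heart (−0.36, −0.59 and −0.79). The sums of 4 monocyte markers overlapped too (61.2 to 129 and 72.5 to 102 CPM), although the fold changes of all 4 were negative, and Chil3 (−1.78) and Ccr2 (−1.29) were lower in every β-NMN heart. Mesothelial markers summed to 1.17 to 81.4 CPM with vehicle and 0.155 to 4.34 CPM with β-NMN, with 3 of 3 negative, and 0 of these monocyte and mesothelial markers were called. The part of these levels in the values of the receptors was not tested. Of the 73 tested pathway genes, 0 were called, 25 were lower without overlap (34.2%, beside 11.5% of all genes) and 3 higher (4.11%, beside 11.6%). Without vehicle replicate 2, 25 were lower (34.2%, beside 14.3% of all genes) and 6 higher (8.22%, beside 14.7%). The gene of smallest p in each group was Tirap, Slc15a3, Peli1, Fos, Tnfaip3, Tlr8 and Il6, and the largest fold change among these was that of Il6, with 4.24 ± 3.3 CPM in vehicle and 0.0639 ± 0.0276 CPM in β-NMN hearts (SD, n = 3 each, adjusted p = 0.435 by edgeR).

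In lungs, 0 of the 10 genes were called, as were 0% of 17008 genes tested, and 301 genes had an unadjusted p below 0.05, none of them among the 10. DESeq2 called 0 of the 10 genes as well. The groups overlapped for all 10 genes, where 3.75% of all genes were lower and 4.47% higher without overlap. Without vehicle replicate 2, Cd14 and, by a margin under the rounding of its CPM, Tlr6 were lower in every β-NMN lung (2 of 10, beside 10.7% of all genes) and 0 were higher (beside 9.44%). Cd14 had the lowest fold change, with 61.9, 52.2 and 87.9 CPM in vehicle and 37.8, 41.5 and 59.1 CPM in β-NMN lungs (log2 fold change −0.55, SE 0.29, adjusted p = 0.969 by edgeR). Tlr2 was at 33.7, 30.5 and 33.7 CPM and at 24.2, 25.1 and 35.9 CPM (−0.2, SE 0.23). With each lung left out in turn, Cd14 ranged from −0.76 (without β-NMN replicate 3) to −0.29 (without vehicle replicate 3) and Tlr2 from −0.4 (without β-NMN replicate 3) to −0.09 (without β-NMN replicate 1). The log2 fold changes of Tlr6, Tlr3 and Tlr7 were −0.02, −0.02 and −0.01.

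The lung of vehicle replicate 2 had 2 reads on Tlr1, 2 on Ly96 and 0 on Tlr9, where the other lungs had 65 to 152, 51 to 104 and 17 to 83 reads. These 3 genes had the highest log2 fold changes, of 0.47 (SE 0.78), 0.57 (SE 0.71) and 0.38 (SE 0.99), which became −0.02, 0.11 and −0.11 without that lung. The same library had 1340 CPM of macrophage markers, against 3980 to 4290 CPM in the other vehicle lungs and 5000 to 5480 CPM in β-NMN lungs, and the part of this in its receptor counts was not tested. Of the 73 tested pathway genes, 0 were called, 8 were lower without overlap (11%, beside 3.75% of all genes) and 0 higher (beside 4.47%). Without that lung, 20 were lower (27.4%, beside 10.7% of all genes) and 2 higher (2.74%, beside 9.44%). The gene of smallest p in each group was Myd88, Cd36, Peli1, Cebpb, Socs1, Tlr8 and Ifit1, among which Ifit1 was at 151 ± 72.6 CPM in vehicle and 45 ± 24.9 CPM in β-NMN lungs (SD, n = 3 each, adjusted p = 0.969 by edgeR).

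**Figure D4:**
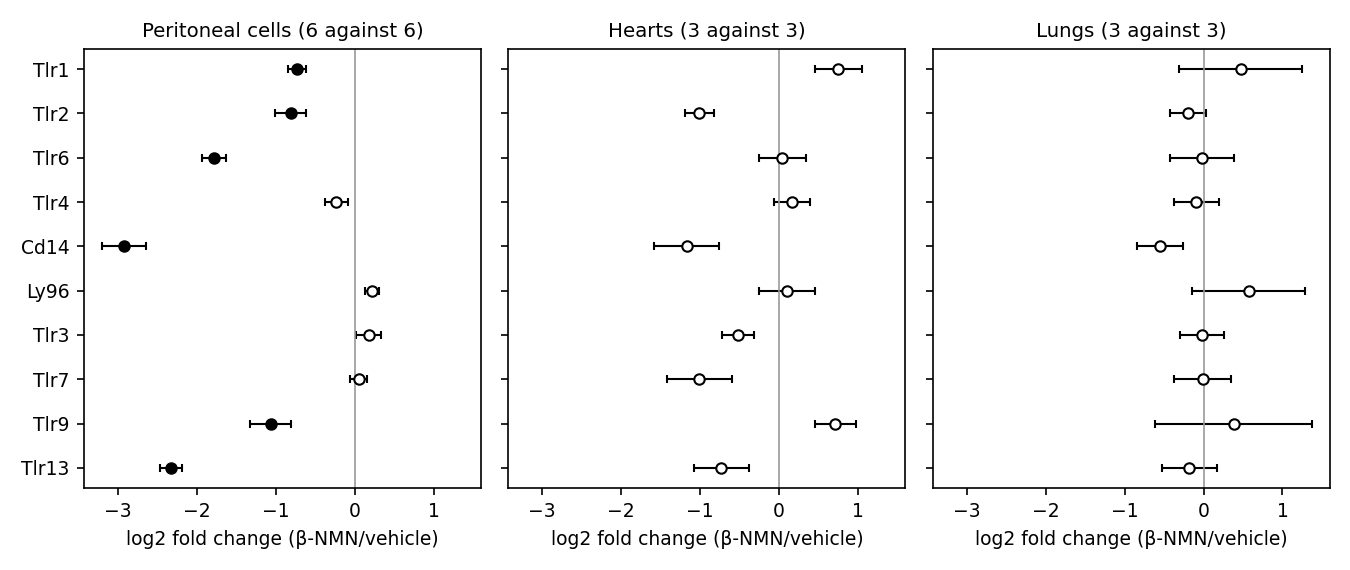
Log2 fold change (β-NMN over vehicle) with its SE for the 10 genes in peritoneal cells, hearts and lungs, on a shared axis. Filled points passed at an adjusted p below 0.05 and open points did not. In peritoneal cells 6 genes are filled, all below 0, and in hearts and lungs 0 are filled.

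Heart and lung came from the same 6 mice, and the level of each gene was compared between the organs, averaged over the treatments (edgeR's quasi-likelihood test over 18318 genes, of which 35.9% were higher and 28.9% lower in lung). This main fit did not pair the organs by mouse. Cd14 was higher in lung by a log2 difference of 1.56 (SE 0.28, adjusted p = 0.000396 by edgeR), Tlr13 by 1.15 (SE 0.27, adjusted p = 0.00285), Tlr2 by 0.87 (SE 0.16, adjusted p = 0.00049) and Tlr6 by 0.76 (SE 0.26, adjusted p = 0.0243). Tlr4 was lower in lung, with a log2 difference of −1.42 (SE 0.2, adjusted p = 7.29e-05 by edgeR). Tlr1, Ly96, Tlr3, Tlr7 and Tlr9 did not pass, and their log2 differences lay between −0.18 and 0.17. With the mouse as a block, the Tlr6 call was lost (0.74, adjusted p = 0.0653 by edgeR). The calls of Cd14, Tlr13, Tlr2 and Tlr4 held, with larger adjusted p of 0.00392, 0.0168, 0.00236 and 0.000102 by edgeR. Without vehicle mouse 2, Tlr7 was higher in lung as well (0.45, adjusted p = 0.0391 by edgeR).

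The ratio of Cd14 to Tlr4 per kilobase was 1.72 to 7.36 in vehicle hearts and 14.7 to 23.8 in vehicle lungs, without overlap, and this ratio was not tested between organs. Per kilobase, Cd14 led in both organs, at 10.3 ± 5.92 CPM in vehicle hearts and 38.9 ± 10.7 CPM in vehicle lungs (SD, n = 3 each), followed by Tlr2 at 4.94 ± 0.697 and 10.8 ± 0.635 CPM. Tlr4 came next in vehicle hearts, at 3.28 ± 0.847 CPM per kilobase, and had rank 5 in vehicle lungs, at 2.13 ± 0.285 CPM per kilobase. Tlr13 came next in vehicle lungs at 2.46 ± 0.911 CPM per kilobase and had rank 7 in vehicle hearts at 0.847 ± 0.403 CPM per kilobase. Below the first 3 in hearts and the first 2 in lungs, neighbours in the order overlapped, except Tlr1 with Tlr9 in hearts. In vehicle peritoneal cells, Cd14 was at 651 to 2940 CPM per kilobase, in another experiment whose table was scaled on its own, so its difference from the organs was not tested.

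**Figure D5:**
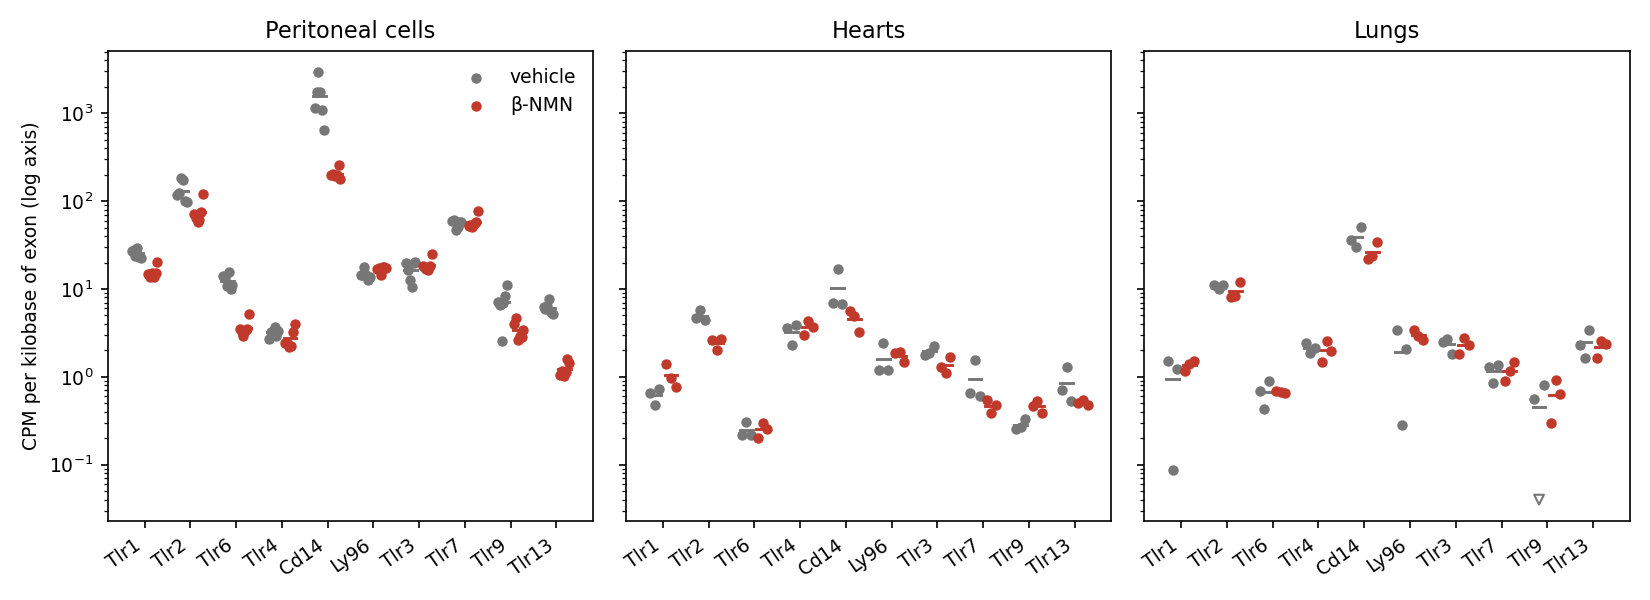
CPM per kilobase of exon on a log axis in peritoneal cells, hearts and lungs, each scaled within its tissue. Points are samples (vehicle grey, β-NMN red), lines are arithmetic means, and the open triangle marks a value of 0 (Tlr9 in the lung of vehicle replicate 2). Cd14 is highest in vehicle samples of all 3 tissues.

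Whether the change with β-NMN differed between the organs was tested with an interaction term. It was called for 0 of the 10 genes and for 0% of 18318 genes, and 4.35% of all genes had an unadjusted p below 0.05. Among the 10 genes, Tlr2 was the one with an unadjusted p below 0.05, with a change in lung that was 0.82 (SE 0.31) above that in heart on the log2 scale (adjusted p = 0.96 by edgeR). Without vehicle mouse 2 this difference was 0.63, and DESeq2 called 0 of the 10 genes.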

How the data were processed

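RNA of 24 samples was analysed from 2 tables in which the authors deposited raw read counts per gene symbol. Per the labels and the study's methods, reads were mapped to mm10 with STAR (2.7.3a in the submitters' processing notes) and counted with featureCounts 2.0.0. The annotation, the strand setting and the treatment of multi-mapping reads are not given in the sources used here. Labels named the groups. The number 3 occurs on a pair of β-NMN hearts, and replicate 2 was given to the heart that shares its animal code with lung 2. The source label of the CLP organs names thioglycollate, whereas title and tissue give CLP.

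Separate fits per tissue were made with edgeR 4.0.16 in R 4.3.3 (filterByExpr, TMM, estimateDisp, legacy quasi-likelihood F-test), with Benjamini-Hochberg adjustment over all genes tested and calls below 0.05. CPM use TMM-scaled library sizes, log2 CPM and ratios a prior count of 2, and lengths are GENCODE M21 exon lengths (GRCm38). Standard errors are approximate, from the coefficient and its F value. Organs were compared in 1 fit over 12 libraries with 4 groups. Exact permutation tests used scipy 1.17.1. Alternatives were DESeq2 1.42.0 and its size factors, no low-count filter, the newer quasi-likelihood form, a replicate or mouse block, leaving out each library, and, added after seeing the data, the depth classes (boundary of 75 M counts) and the heart and lung counts without vehicle replicate 2. The fit was tested on simulated data. Total counts per library (8.9 to 112.5 M) limit the precision of low genes, and labels do not pair mice across treatments. Replicate numbers were checked: correlations of deviations of same-numbered libraries were −0.17 to 0.13 in peritoneal cells, 0.07 to 0.24 in hearts and −0.52 to 0.3 in lungs, whereas heart and lung of 1 mouse are paired by animal (0.06 to 0.17).

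The 10 genes and the lists were chosen with earlier results of these data known. Genes named from the pathway list were the 3 called genes of smallest p per group in peritoneal cells and the gene of smallest p per group in hearts and lungs. The cytokine and interferon targets that rose or were not called in peritoneal cells were named as well. Co-varying genes were the 3 of highest r among 9638 genes whose log2 CPM averaged 1 or more. Promoter sequences are those of RefSeq (GRCm38.p6), and those printed were chosen after their matches were seen.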

Additional observations from a re-analysis of the deposited data

Results flagged for a closer look

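Among 32 groups of 6 values tested in peritoneal cells (10 genes and 6 ratios in both treatments), 10 held a value far from the other 5, where chance gives about 1 in 20. In β-NMN replicate 6, Tlr1 (68.5 CPM), Tlr2 (363 CPM), Tlr6 (19.4 CPM), Tlr3 (132 CPM) and Tlr7 (315 CPM) were each far above the other 5 β-NMN libraries, and its ratio of Cd14 to Tlr4 (44.9) was far below theirs. This library alone accounts for 6 of the 10, and without it, Tlr7 was at a log2 fold change of −0.02 and Tlr4 passed at −0.33 (adjusted p = 0.0263 by edgeR). In β-NMN replicate 3, Ly96 (15 CPM) was far below the other β-NMN libraries and the ratio of Tlr1 to Tlr6 (5.17) far above. Cd14 in β-NMN replicate 5 (450 CPM) was far above the other β-NMN libraries. Tlr9 in vehicle replicate 3 (8.96 CPM) was far below the other vehicle libraries, which were at 22.8 to 39.1 CPM.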

How the results depend on the processing

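In peritoneal cells, 6 genes were lower under every alternative except without β-NMN replicate 6 (7, with Tlr4) and within the deep and within the shallow libraries (5 each). The count of genes higher was 1 instead of 0, namely Ly96, with the size factors of DESeq2 and with its test, and 0 to 1 when a library was left out. Within shallow libraries, 20 pathway genes, 2241 of all genes lower and 2003 higher were called. Tlr7, near 0, was at −0.01 in deep libraries and at −0.02 to 0.12 with each library left out, and the log2 ratio difference of Tlr1 to Tlr2 ranged from −0.05 to 0.14. In hearts, DESeq2 called 1 of the 10 genes, 7 pathway genes, 224 genes lower and 38 higher. Without the filter, 1 pathway gene and 3 genes were called lower. With each heart left out, 0 to 5 genes were called lower, 1 to 4 of the 10 genes were lower and 0 to 2 higher at an unadjusted p below 0.05 (beside 3.64% to 10.8% and 1.39% to 5.12% of all genes), Tlr6 ranged from −0.11 to 0.21, Ly96 from −0.08 to 0.52 and Tlr4 from −0.04 to 0.32. In lungs, DESeq2 called 8 genes lower and 1 higher. With each lung left out, log2 fold changes ranged from −0.02 to 0.96 for Tlr1, −0.24 to 0.25 for Tlr6, −0.31 to 0.08 for Tlr4, 0.11 to 1.25 for Ly96, −0.17 to 0.11 for Tlr3, −0.21 to 0.15 for Tlr7, −0.11 to 1.02 for Tlr9 and −0.39 to 0.16 for Tlr13. Tlr3 was at 0.02 without the filter. The causes of these changes were not tested.

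With the replicate block, 6 of the 10 genes were lower in peritoneal cells, 0 instead of 2 were higher at an unadjusted p below 0.05 in hearts, and Tlr6 was at 0.04 in lungs. Since same-numbered mice share only a number, the block is no pairing. With the mouse as replicate block, 3 genes instead of 4 were higher in lung than in heart.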
